A study of Mus musculus with 10 samples.

Results

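Chemokine receptors were followed in microglia, the resident macrophages of the retina, after mice were made diabetic with streptozotocin (STZ), a toxin that kills the pancreatic cells that make insulin. The 7 genes described are the fractalkine receptor Cx3cr1, its ligand Cx3cl1, and the receptors Ccr2, Ccr1, Ccrl2, Cxcr4 and Cmklr1. They were taken by name from a count table of 55487 genes, by a rule that uses no measured value but was written with earlier results of these data known. All 7 passed the filter on low counts, which left 18957 genes for testing. RNA came from flow-sorted, viable, green fluorescent retinal cells, with both eyes of an animal pooled into 1 library. The groups were littermate controls (Control, n = 3), mice 4 weeks after STZ (4wk STZ, n = 3) and mice 8 weeks after STZ (8wk STZ, n = 4).

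Every animal, controls included, was Cx3cr1GFP/+, so that 1 of its Cx3cr1 copies was replaced by the gene for green fluorescent protein (GFP). No animal with both copies intact was measured, and the same locus drove the reporter by which cells were sorted. The labels give no animal ages and a single control set. Time after STZ and any difference in age therefore cannot be told apart, and both comparisons with Control share the same 3 libraries. Whether reads from the transcript of the GFP-carrying copy were counted toward Cx3cr1 is not given in the sources used here.

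Chemokine receptors are G protein-coupled receptors that steer leukocytes along gradients of small secreted proteins. Fractalkine is unusual in being made as a membrane-anchored protein, in nervous tissue largely by neurons, from which proteases release a soluble form; microglia carry its receptor in abundance, and signalling through it restrains their activation. Ccr2 is the receptor by which classical monocytes follow Ccl2 out of the blood, and Ccr1 binds Ccl3, Ccl5 and related ligands. Ccrl2 binds the attractant chemerin without signalling, Cmklr1 is the receptor that signals to chemerin, and Cxcr4 is the receptor for Cxcl12.

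In the GRCm38 build with the GENCODE vM21 annotation, 4 of the 7 genes lie on chromosome 9. Cx3cr1 (ENSMUSG00000052336) occupies chr9:119901616-120069879 on the minus strand and has 4505 exonic bases, of which 1.73% overlap the antisense gene Gm33858. Ccrl2 (ENSMUSG00000043953) occupies chr9:111054486-111057519 on the minus strand. Ccr1 (ENSMUSG00000025804) occupies chr9:123962124-123968692 on the minus strand, and Ccr2 (ENSMUSG00000049103) occupies chr9:124101950-124113557 on the plus strand. Cx3cl1 (ENSMUSG00000031778) lies at chr8:94772009-94782427 on the plus strand, Cxcr4 (ENSMUSG00000045382) at chr1:128588199-128592293 and Cmklr1 (ENSMUSG00000042190) at chr5:113612354-113650426, both on the minus strand. Of the distinct 75-base windows in a gene's transcripts, 1.16% for Ccr2 and 0.113% for Cx3cr1 also occur in those of another gene, so that few of their reads could be shared, and no shared window was found for the other 5 genes.

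The 250 bases before the annotated RefSeq start (assembly GRCm38.p6) are shown for Cx3cr1 and Ccrl2. These genes were chosen because their levels, scaled as given below, separated 8wk STZ from Control. The windows lie at chr9:120068297-120068546 and chr9:111057519-111057768, both on the minus strand, and each is written 5′ to 3′ as the gene reads. The Cx3cr1 window lies inside the GENCODE span given above, because the RefSeq start is downstream of the 5′ end of that span. Ccrl2 has 3 annotated starts, and the sequence before the one farthest upstream is given. Capitals mark a match to GGNNTTTCC, a form of the site bound by NF-kB factors, which relay inflammatory signals.
Cx3cr1: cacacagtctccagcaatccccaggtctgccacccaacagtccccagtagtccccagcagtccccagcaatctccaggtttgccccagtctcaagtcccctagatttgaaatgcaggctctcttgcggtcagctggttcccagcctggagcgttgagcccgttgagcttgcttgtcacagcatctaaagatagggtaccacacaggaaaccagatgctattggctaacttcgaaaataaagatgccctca
Ccrl2: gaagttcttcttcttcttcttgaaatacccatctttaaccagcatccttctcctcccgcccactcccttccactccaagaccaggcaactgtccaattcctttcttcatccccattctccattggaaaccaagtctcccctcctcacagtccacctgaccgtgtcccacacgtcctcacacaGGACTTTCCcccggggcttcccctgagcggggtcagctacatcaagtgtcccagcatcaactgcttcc
The Ccrl2 match starts 68 bases before the start. On both strands, 4.9% of 32851 windows of the same length held GGNNTTTCC. Searches for GAGGAA, the core bound by the myeloid factor PU.1, and for TTGCNNAA, a C/EBP core, found neither in these 2 windows, while 23.3% and 9.6% of all windows held them. These are matches of letters and no measurement of binding.

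The cells carried the markers of microglia in every library. The summed level of 12 microglia marker genes, among them Csf1r and P2ry13, was between 44727 and 50021 CPM in the controls. It was between 39916 and 43971 CPM at 4 weeks and between 35458 and 38673 CPM at 8 weeks, without overlap between groups. CPM, the usual unit of counts relative to the sequenced reads of a library, is given here after TMM normalization, which corrects library totals for a few genes that take many reads. The 7 neutrophil markers summed to at most 2.65 CPM. The 10 T and NK cell markers summed to between 0.0225 and 15.6 CPM and were highest in Control 3 (15.6), 8wk STZ 4 (11.7) and 4wk STZ 1 (6.85 CPM), mostly through Gzma and Nkg7. The T-cell genes Cd3e and Cd3d, named outside the rule for genes, were at most 0.902 and 0.591 CPM in any library. They are among 5 of the 10 markers that stayed below 1 CPM in every library. Cd3g, Cd2 and Trac, T-cell genes of the same list also named outside the rule, are not among those 5. RNA of rod photoreceptors was also present, with 16 rod markers summing to between 9497 and 10469 CPM in the controls, 4618 and 6640 CPM at 4 weeks, and 2900 and 4016 CPM at 8 weeks. Immediate early genes, which respond within minutes to cell handling, summed to between 881 and 1365 CPM in the controls, 984 and 1555 CPM at 4 weeks, and 1472 and 2134 CPM at 8 weeks. Summed markers of Muller glia and astrocytes averaged 1343 CPM in Control and 828 CPM in 8wk STZ. Those of inner retinal neurons averaged 214 and 99.7 CPM, of bipolar cells 76.8 and 33.6 CPM, and of vascular cells 178 and 73.9 CPM. Each of these sums was lower in 8wk STZ than in Control without overlap. The part of RNA from such other cells, or of immediate early genes, in the results below was not tested. Library totals lay between 33266838 and 62903489 reads.

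Cx3cr1 was among the most abundant transcripts, between the 25th and the 32nd by CPM in each of the 10 libraries. Divided by exonic length, its level in Control was 857 ± 55.0 CPM per kilobase (SD, n = 3). Ccr1 (20.7 ± 4.73), Cmklr1 (20.1 ± 1.32) and Ccrl2 (18.8 ± 1.43 CPM per kilobase) came next and overlapped in range, so that their order in Control was not resolved. Ccr2 (0.58 ± 0.091), Cx3cl1 (0.52 ± 0.70) and Cxcr4 (0.41 ± 0.15 CPM per kilobase) formed the lowest tier, again with overlapping ranges. In both STZ groups the tiers were the same, but Cmklr1 no longer overlapped Ccrl2: the pair stood at 21.4 ± 1.76 and 12.7 ± 2.72 CPM per kilobase in 4wk STZ and at 23.5 ± 3.10 and 12.97 ± 0.95 in 8wk STZ. Among 36 genes compared per length in Control (the 7, 19 other chemokine receptors and 10 receptors for other attractants), Cx3cr1 stood highest, above the complement receptor C5ar1 (363 ± 22.9) and the oxysterol receptor Gpr183 (187 ± 29.4 CPM per kilobase). C5ar1 is named here for its rank, after its values were seen.

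**Figure D1:**
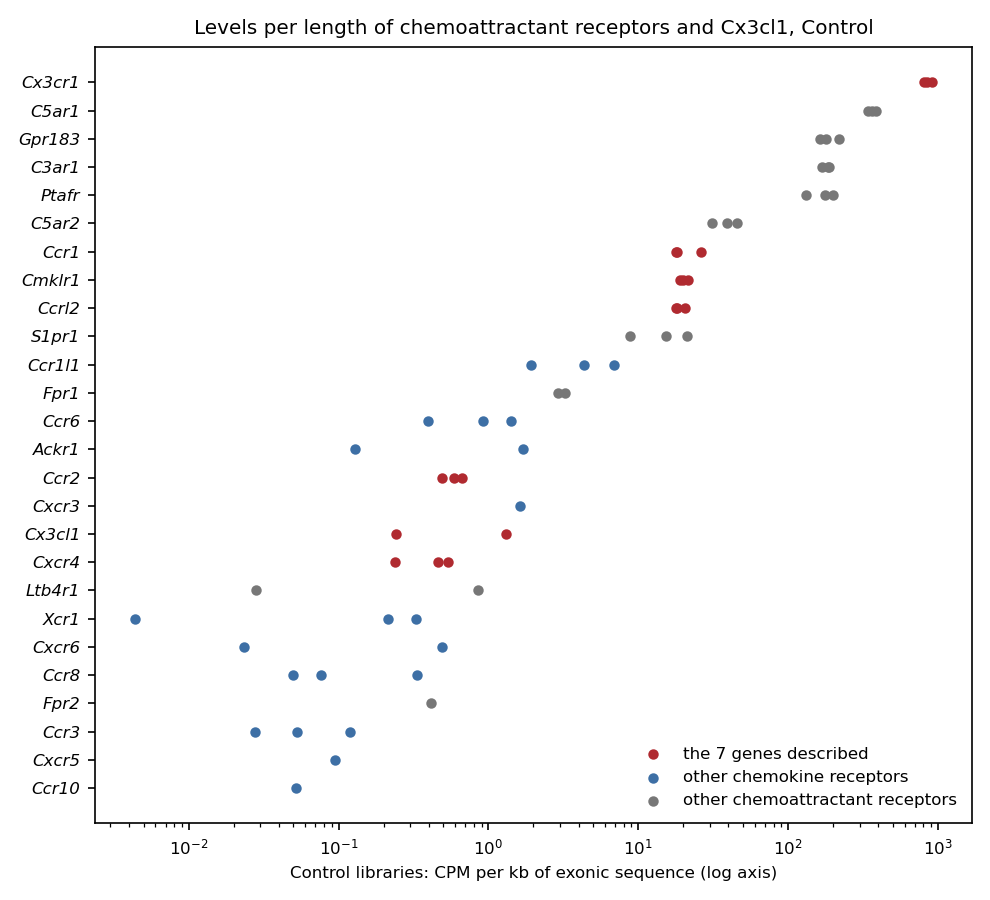
Level per exonic length of chemokine receptors, other chemoattractant receptors and Cx3cl1 in the 3 Control libraries (points, log axis, CPM per kilobase); genes averaging under 0.1 over the 10 libraries, libraries at 0, and a gene not reported here are not drawn. Cx3cr1 lies near 857 CPM per kilobase, Ccr1, Cmklr1 and Ccrl2 near 20, and Ccr2, Cx3cl1 and Cxcr4 below 2.

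Cx3cr1 was lower 8 weeks after STZ than in Control, but the difference did not pass the test across all genes. Its level was 3822, 3635 and 4126 CPM in Control 1, 2 and 3, and 3760, 3421 and 3539 CPM in 4wk STZ 1, 2 and 3. In 8wk STZ 1, 2, 3 and 4 it was 3110, 3431, 2971 and 2834 CPM. On this TMM scale, all 4 of the 8wk STZ libraries lay below every Control library, whereas the 4wk STZ libraries overlapped both other groups. As a percent of all reads, without TMM, Cx3cr1 was 0.354 to 0.390 in Control and 0.295 to 0.371 in 8wk STZ, which overlapped. The TMM factors were 0.947 to 0.984 in Control and 1.003 to 1.082 in 8wk STZ. The mean levels of Cx3cr1 were 3861 ± 248 CPM in Control (SD, n = 3), 3573 ± 173 in 4wk STZ (n = 3) and 3086 ± 256 in 8wk STZ (n = 4). In bulk RNA, fewer cells of a type and less RNA per cell cannot be told apart.

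Each group was compared with edgeR's quasi-likelihood test, which models the spread of read counts between animals, with p-values adjusted over all 18957 genes by the Benjamini-Hochberg method. A gene was called changed at an adjusted p below 0.05. For Cx3cr1 the log2 fold change was -0.32 ± 0.08 (SE) at 8 weeks against Control (adjusted p = 0.0692), -0.11 ± 0.09 at 4 weeks (adjusted p = 0.767) and -0.21 ± 0.08 for 8wk STZ against 4wk STZ (adjusted p = 0.282). Of 21 alternative analyses, 5 called the gene at 8 weeks and 16 did not. It was called by DESeq2 (adjusted p = 0.00897), by edgeR's likelihood ratio test (adjusted p = 0.0448), by limma-voom (adjusted p = 0.0245), under upper-quartile scaling (adjusted p = 0.0388), and without 8wk STZ 2 (log2 fold change -0.38, adjusted p = 0.0448). The 16 without a call included scaling by library totals alone (-0.22, adjusted p = 0.236), the 2 groups fitted alone (adjusted p = 0.0994) and leaving out any 1 library other than 8wk STZ 2 (adjusted p of up to 0.221, without Control 3). The sign was negative in all 21. The authors' deposited table, which carries a likelihood ratio statistic, lists Cx3cr1 with a log2 fold change of -0.33 and an FDR of 0.0332 at 8 weeks, and with an FDR of 0.861 at 4 weeks.

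**Figure D2:**
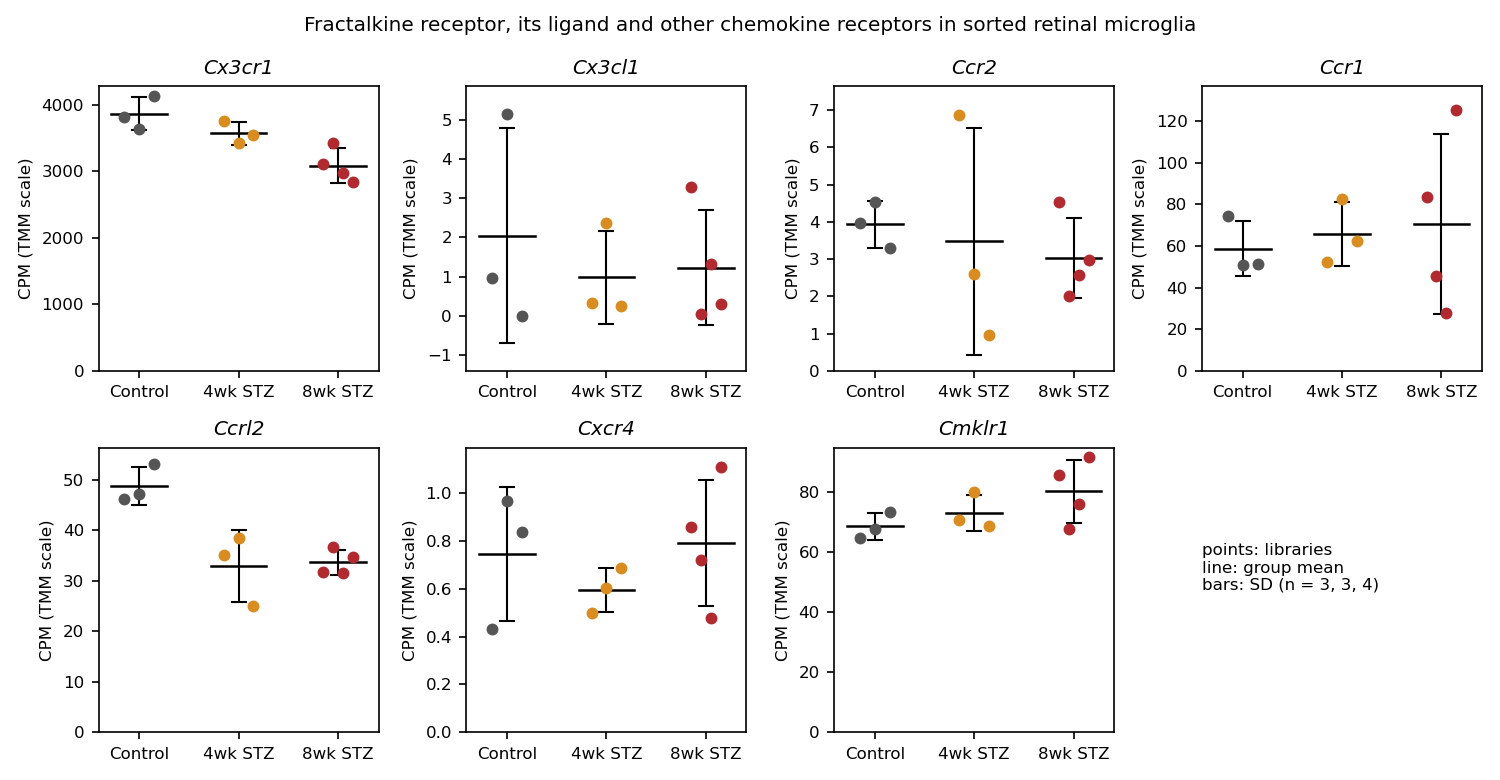
CPM of each of the 7 genes in every library (points) with the group mean (line) and SD (bars), for Control, 4wk STZ and 8wk STZ (n = 3, 3 and 4). The 8wk STZ points lie below all Control points for Cx3cr1, as do both STZ groups for Ccrl2, and the groups overlap for the other 5 genes.

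The lower Cx3cr1 level at 8 weeks came with lower levels of other microglial genes. Of 12 microglia markers, 5 fell, 1 rose and 6 did not pass the test at 8 weeks, and their median log2 fold change was -0.35, against -0.0061 over all genes tested. Of all tested genes, 1.4% were called lower and 0.971% higher at 8 weeks. Csf1r, the receptor that keeps microglia alive, was 10752, 10162 and 11329 CPM in Control 1, 2 and 3 and between 7478 and 8115 CPM in 8wk STZ, a log2 fold change of -0.47 ± 0.06 (adjusted p = 0.00525); 15.1% of its exonic bases overlap Hmgxb3 on the opposite strand. P2ry13, a receptor for ADP, fell by 0.59 on the log2 scale (adjusted p = 0.0143), and Fcrls, an Fc receptor-like gene typical of mouse microglia, fell by 0.85 (adjusted p = 0.0175). Siglech, a sialic acid-binding lectin, rose by 0.78 (adjusted p = 0.0135). The call for P2ry13 was lost without Control 1 or Control 3, and that for Fcrls without Control 1, Control 3 or 8wk STZ 3, with adjusted p of at most 0.0546 and 0.0659. At 4 weeks none of the 12 was called, and 11 had a log2 fold change below 0.

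Relative to the same markers, the level of Cx3cr1 overlapped between all groups. Its CPM was 7.98%, 8.13% and 8.25% of the summed CPM of the 12 markers in Control 1, 2 and 3. It was 8.55%, 8.57% and 8.16% in 4wk STZ 1, 2 and 3, and 8.04%, 9.16%, 7.85% and 7.99% in 8wk STZ 1 to 4. The means were 8.12% ± 0.14 (SD, n = 3), 8.43% ± 0.23 (n = 3) and 8.26% ± 0.61 (n = 4). The ratio of Cx3cr1 to Csf1r was 0.355 to 0.364 in Control, 0.374 to 0.387 in 4wk STZ and 0.349 to 0.447 in 8wk STZ, where 3 of the 4 libraries lay above every other library and 8wk STZ 4 lay below them all.

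**Figure D3:**
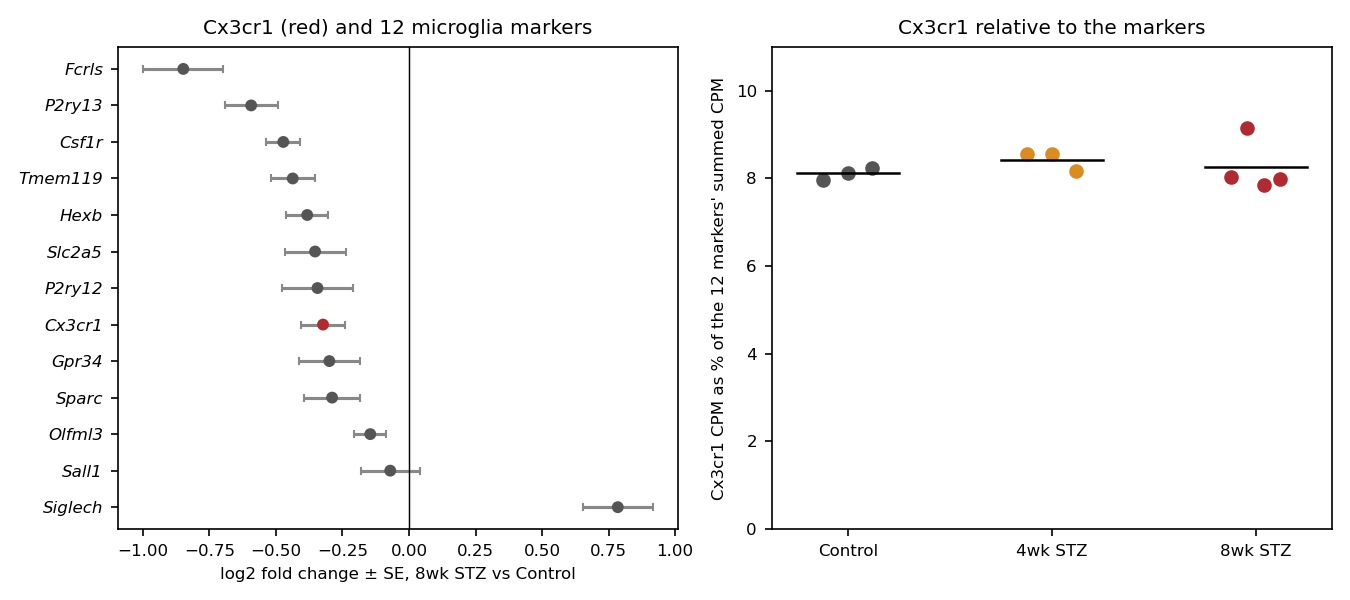
Left, log2 fold change ± SE of Cx3cr1 and 12 microglia markers at 8 weeks against Control; right, Cx3cr1 as a percent of the summed CPM of those markers in each library, with the group mean as a line. Cx3cr1, at -0.32, lies within the range of the markers, 11 of which are below 0, and its share of their sum is near 8% in all groups.

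Of the tested genes that were ranked, the 5 whose log2 CPM followed Cx3cr1 most closely over the 10 libraries were P2ry13 (Pearson r = 0.966), Mboat7 (0.966), Rd3 (0.961), Cadm1 (0.955) and Syp (0.948). The ranking covered 6570 genes whose log2 CPM averaged 4 or more. It left out pseudogenes, unconfirmed gene models, names that begin with Gm or end in Rik, Xist and Y-linked genes. The points share their libraries, their scaling and the group differences. P2ry13 is a microglial receptor, whereas Rd3 and Syp, a photoreceptor protein and a synaptic vesicle protein, are typical of neurons.

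The ligand Cx3cl1 was barely detected in the sorted cells and varied between animals within every group. It had 44, 230 and 0 reads in Control 1, 2 and 3, 16, 114 and 8 reads in 4wk STZ 1, 2 and 3, and 207, 2, 66 and 17 reads in 8wk STZ 1 to 4. As CPM these were 0.95, 5.18 and 0 in Control, 0.33, 2.36 and 0.25 in 4wk STZ, and 3.28, 0.040, 1.31 and 0.29 in 8wk STZ. Control 2 stood highest of all, and the 0 in Control 3 allows a level of up to 0.0584 CPM (3 reads, for counting error only). The groups overlapped. The log2 fold changes were -1.05 ± 1.70 (SE) at 4 weeks (adjusted p = 0.915) and -0.73 ± 1.56 at 8 weeks (adjusted p = 0.906), and without Control 2 they became 1.05 and 1.37, so neither direction was resolved.

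Proteases that release fractalkine were abundant by comparison and did not pass the test. Ctss, the lysosomal and secreted protease cathepsin S, was 15216 ± 1160 CPM in Control, 16375 ± 1030 CPM in 4wk STZ and 15514 ± 1193 CPM in 8wk STZ, with log2 fold changes of 0.11 ± 0.09 (SE) at 4 weeks (adjusted p = 0.787) and 0.03 ± 0.08 at 8 weeks (adjusted p = 0.940). The sign at 8 weeks turned without Control 2 or 8wk STZ 1, where the lowest value was -0.035. Adam10, a membrane-bound sheddase, was 476 ± 19.8 CPM in Control and 413 ± 57.6 in 8wk STZ (log2 fold change -0.20 ± 0.14, adjusted p = 0.560). None of the 3 proteases listed (Adam17 is the third) was called in any comparison.

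Ccrl2, the chemerin-binding receptor that does not signal, was lower in every STZ library than in every Control library. It was 46.1, 47.3 and 53.0 CPM in Control 1, 2 and 3. It was 35.2, 38.6 and 25.005 CPM in 4wk STZ 1, 2 and 3, and 31.8, 36.7, 31.6 and 34.7 CPM in 8wk STZ 1 to 4. The lowest Control library exceeded the highest STZ library, 4wk STZ 2, and the STZ groups overlapped each other. The means were 48.8 ± 3.70 CPM (SD, n = 3) in Control, 32.9 ± 7.06 in 4wk STZ (n = 3) and 33.7 ± 2.47 in 8wk STZ (n = 4).

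The log2 fold change of Ccrl2 was -0.57 ± 0.17 (SE) at 4 weeks (adjusted p = 0.318), -0.53 ± 0.15 at 8 weeks (adjusted p = 0.105) and 0.03 ± 0.15 for 8wk STZ against 4wk STZ (adjusted p = 0.966), the last of which turned negative without 4wk STZ 3 or 8wk STZ 2 (-0.13 at the lowest). Neither comparison with Control passed the adjusted test, with unadjusted p-values in edgeR of 0.0059 and 0.00528. At 8 weeks it was called by DESeq2 (adjusted p = 0.0201), by the likelihood ratio test (adjusted p = 0.0386) and without 4wk STZ 3 (adjusted p = 0.0462), and the sign against Control was negative in each of 21 alternative analyses at both times. The authors' deposited table gives Ccrl2 a log2 fold change of -0.56 with an FDR of 0.171 at 4 weeks and of -0.54 with an FDR of 0.0477 at 8 weeks.

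Cmklr1, the signalling chemerin receptor, had positive log2 fold changes at both times, neither of which passed the test. It was 64.5, 67.5 and 73.3 CPM in Control 1, 2 and 3, 70.6, 79.8 and 68.5 CPM in 4wk STZ 1, 2 and 3, and 85.6, 67.5, 75.9 and 91.4 CPM in 8wk STZ 1 to 4. The groups overlapped, with 8wk STZ 1 and 8wk STZ 4 above all other libraries. Its log2 fold changes were 0.09 ± 0.13 (SE) at 4 weeks (adjusted p = 0.899) and 0.23 ± 0.12 at 8 weeks (adjusted p = 0.428), positive in each of 21 alternative analyses. Rarres2, the gene for chemerin itself, was at most 0.444 CPM in any library and was named outside the rule for genes. Whether Ccrl2 and Cmklr1 differed in their response was not tested.

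**Figure D4:**
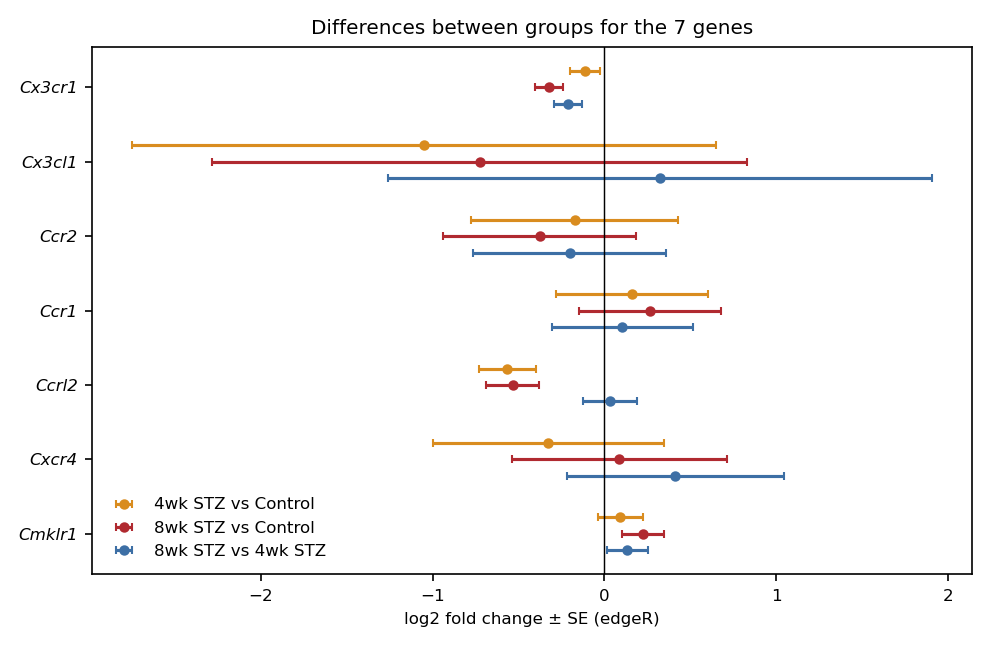
Log2 fold change ± SE (edgeR) of the 7 genes in the 3 comparisons. Cx3cr1 and Ccrl2 lie below 0 against Control at both times, none of the 7 was called, and the widest bars are those of Cx3cl1 (SE 1.56 to 1.70).

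Ccr2 was a low-level transcript with no resolved difference. It was 3.98, 4.52 and 3.29 CPM in Control 1, 2 and 3, 6.87, 2.59 and 0.96 CPM in 4wk STZ 1, 2 and 3, and 4.52, 2.00, 2.59 and 2.99 CPM in 8wk STZ 1 to 4, from between 31 and 331 reads a library. The highest and the lowest library were both 4wk STZ, and the groups overlapped. The log2 fold change was -0.17 ± 0.60 (SE) at 4 weeks (adjusted p = 0.968) and -0.38 ± 0.56 at 8 weeks (adjusted p = 0.849). The direction at 4 weeks turned without 4wk STZ 3 (0.27) or 4wk STZ 2 (0.00025). The 11 genes of the monocyte list summed to between 52.9 and 155 CPM in Control, 74.5 and 205 CPM in 4wk STZ, and 42.2 and 313 CPM in 8wk STZ, and none of the 9 tested was called. Within that list F13a1, which border macrophages also carry, was 2.51 to 234 CPM, and Ms4a4c was 6.47 to 52.5 CPM. Ly6c2, which with Ccr2 marks classical monocytes, was at most 2.18 CPM in any library and was named outside the rule. The part of monocytes in the Ccr2 level was not tested. The 5 genes whose log2 CPM followed Ccr2 most closely over the 10 libraries were Pspc1 (Pearson r = 0.930), Abi3 (0.925), Slc35a2 (0.899), Zwint (0.894) and Pctp (0.887), among 6571 genes. The 6571 were chosen as for Cx3cr1.

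Ccr1, the receptor for Ccl3 and Ccl5, varied more between the 8wk STZ animals than between groups. It was 74.2, 50.8 and 51.2 CPM in Control 1, 2 and 3, 52.4, 82.3 and 62.3 CPM in 4wk STZ 1, 2 and 3, and 83.6, 45.7, 28.0 and 125 CPM in 8wk STZ 1 to 4. The lowest library, 8wk STZ 3, and the highest, 8wk STZ 4, thus belonged to the same group, and all groups overlapped. The log2 fold change was 0.16 ± 0.44 (SE) at 4 weeks (adjusted p = 0.957) and 0.27 ± 0.41 at 8 weeks (adjusted p = 0.857). The direction at 8 weeks turned without 8wk STZ 4 (-0.16), and that at 4 weeks without 4wk STZ 2 (-0.04).

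Border macrophages sit along vessels and membranes rather than in the neural retina and also carry Cx3cr1. The summed level of their markers was lowest and highest in the same libraries as Ccr1. The 11 markers of that list, 10 of them with a read, summed to between 348 and 567 CPM in Control, between 255 and 448 CPM in 4wk STZ, and to 523, 334, 209 and 685 CPM in 8wk STZ 1 to 4. None of the 10 tested was called in any comparison. F13a1, a coagulation factor made by monocytes and such macrophages and taken from the monocyte list, was 183, 53.2, 2.51 and 234 CPM in 8wk STZ 1 to 4. Mrc1, the mannose receptor, was 86.9, 49.0, 6.90 and 112 CPM in the same libraries, and the scavenger receptor Cd163 was 16.2, 3.17, 0 and 38.0 CPM. Mrc1, Cd163 and Lyve1 were named after their values were seen and need not stand for the list. Stab1 and Ms4a7, the list's genes with the highest mean CPM, are not given by library here. In 4wk STZ, Ccr1 and F13a1 were both highest in 4wk STZ 2, where F13a1 was 168 CPM. The part of such cells in the Ccr1 level was not tested.

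**Figure D5:**
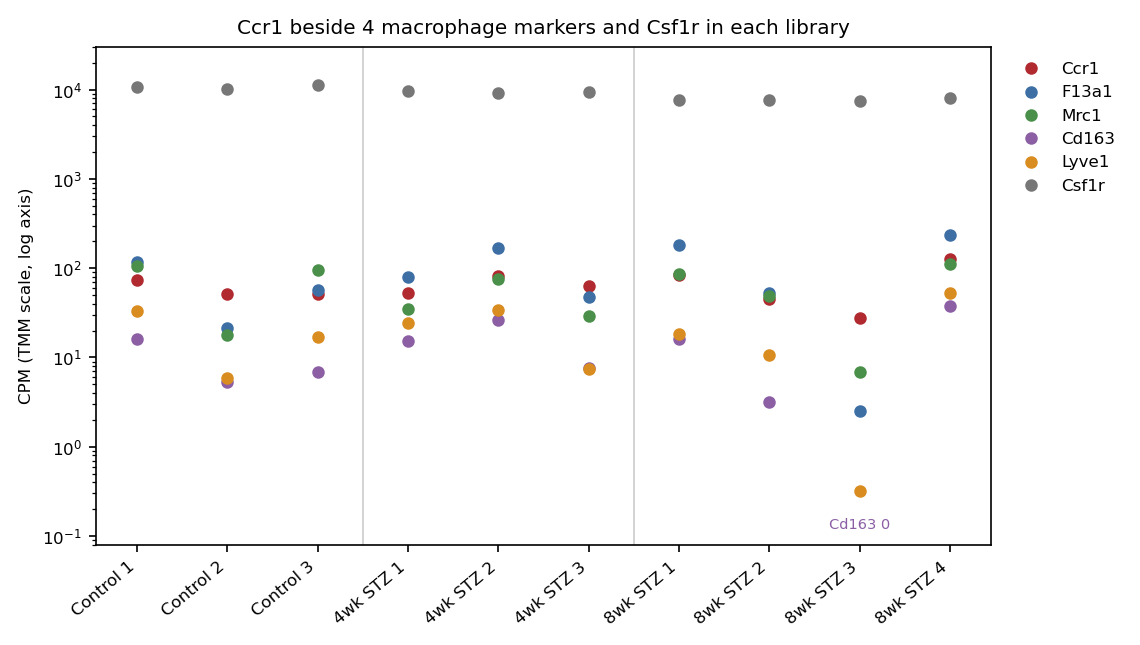
CPM (log axis) of Ccr1, the macrophage markers F13a1, Mrc1, Cd163 and Lyve1, and the microglial gene Csf1r in each of the 10 libraries. In 8wk STZ 3 the 4 markers and Ccr1 are at their lowest and Cd163 is at 0, whereas Csf1r differs little between the libraries of a group. F13a1 is from the monocyte list. Mrc1, Cd163 and Lyve1 were picked after their values were seen and need not stand for the border macrophage list. The 11 markers of that list summed to 209 CPM in 8wk STZ 3 and 685 CPM in 8wk STZ 4.

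Cxcr4, the receptor for Cxcl12, had only between 20 and 66 reads a library. Its level was 0.43, 0.97 and 0.84 CPM in Control 1, 2 and 3, 0.50, 0.60 and 0.68 CPM in 4wk STZ 1, 2 and 3, and 0.86, 0.72, 0.48 and 1.11 CPM in 8wk STZ 1 to 4. The groups overlapped. The log2 fold change was -0.33 ± 0.67 (SE) at 4 weeks (adjusted p = 0.937) and 0.09 ± 0.63 at 8 weeks (adjusted p = 0.979), which turned without Control 1 (-0.19) or 8wk STZ 4.

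Over the 7 genes, none was called in any of the 3 comparisons, with 1, 2 and 1 of them at an unadjusted p under 0.05 at 4 weeks, at 8 weeks and for 8wk STZ against 4wk STZ. Of all 18957 genes tested, 1849, 2970 and 2589 were under that p in the same order, so these counts do not set the 7 apart. Across all genes the test called 0% at 4 weeks, 2.37% at 8 weeks and 0.918% for 8wk STZ against 4wk STZ. At 4 weeks that is 0 genes with edgeR's quasi-likelihood test, while 1849 had an unadjusted p under 0.05, DESeq2 called 314, edgeR's likelihood ratio test 244 and limma-voom 0. By the measure of groups whose CPM on the TMM scale do not overlap, 1 of the 7 was lower at 4 weeks (Ccrl2) and 2 at 8 weeks (Cx3cr1 and Ccrl2). Of all tested genes, 6.25% and 7.99% were lower in this way. As a percent of all reads, without TMM, Cx3cr1 overlapped between Control and 8wk STZ. None of the 7 was higher without overlap, where 6.07% and 8.91% of all genes were (12.3% and 16.9% in either direction). Between 8wk STZ and 4wk STZ none of the 7 was apart, against 8.39% of all genes higher and 6.97% lower (15.4% in either direction). The median log2 fold change of the 7 was -0.17 at 4 weeks and -0.32 at 8 weeks, against -0.0039 and -0.0061 over all genes. For 8wk STZ against 4wk STZ it was 0.10, against -0.00045. Of the 7, 2, 3 and 5 had a log2 fold change above 0 in these comparisons. With 7 genes each median is the value of a single gene: Ccr2 at 4 weeks, Cx3cr1 at 8 weeks and Ccr1 between the STZ groups. Scaled by library totals alone, the median of all genes at 8 weeks was 0.098.

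Other chemokine receptors gave no call either. Of 19 listed, 12 passed the filter on low counts and none was called in any comparison. Ccr1l1, a close relative of Ccr1, was 5.12 ± 2.92 CPM in Control and 6.82 ± 2.55 in 8wk STZ (log2 fold change 0.41 ± 0.46, adjusted p = 0.778).

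Among 10 receptors for other attractants, 9 were tested and 1 fell at 8 weeks, with none called at 4 weeks. Gpr183 was 517, 469 and 634 CPM in Control 1, 2 and 3, 387, 406 and 490 CPM in 4wk STZ 1, 2 and 3, and 342, 382, 347 and 238 CPM in 8wk STZ 1 to 4. All 8wk STZ libraries lay below all Control libraries, and the log2 fold change was -0.72 ± 0.16 (SE, adjusted p = 0.0456). This call was lost without any 1 of 9 of the libraries (all but 4wk STZ 3), with adjusted p of up to 0.150, and under scaling by library totals alone. At 8 weeks 1.4% of all genes were called lower, and the median log2 fold change of the 9 receptors was -0.38.

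Among ligands of these receptors, Ccl3 was called higher in 8wk STZ against both other groups, and Ccl2 only against 4wk STZ. Of 12 listed and tested ligands, 1 rose at 8 weeks against Control and 2 rose in 8wk STZ against 4wk STZ, where 0.971% and 0.396% of all genes were called higher. None was called at 4 weeks. The median log2 fold change of the 12 was 0.34 at 8 weeks.

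Ccl3, a ligand of Ccr1, was 55.4, 42.9 and 54.5 CPM in Control 1, 2 and 3, and 62.7, 47.6 and 58.2 CPM in 4wk STZ 1, 2 and 3. It was 84.3, 90.6, 100.4 and 90.4 CPM in 8wk STZ 1 to 4, above every other library. Its log2 fold change was 0.84 ± 0.13 (SE) against Control (adjusted p = 0.0113), called without any 1 of the 10 libraries, and 0.70 ± 0.13 against 4wk STZ (adjusted p = 0.0405). The call against 4wk STZ was lost without any 1 library other than Control 2, with adjusted p of up to 0.127.

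Ccl2, the main ligand of Ccr2, was 12.7, 26.1 and 14.9 CPM in Control 1, 2 and 3, 12.8, 18.8 and 12.6 CPM in 4wk STZ 1, 2 and 3, and 41.2, 32.9, 36.6 and 48.7 CPM in 8wk STZ 1 to 4. All 8wk STZ libraries again lay above all others. The log2 fold change was 1.43 ± 0.27 (SE) against 4wk STZ (adjusted p = 0.0405) and 1.15 ± 0.27 against Control (adjusted p = 0.0536). The first call was lost without any 1 library other than Control 1 or Control 2, with adjusted p of up to 0.151, and the second comparison was called without Control 2 (adjusted p = 0.0226). The summed immediate early genes were also above every Control library in 8wk STZ, as given above, with 1 of 12 called at 8 weeks (Zfp36), and their part in the Ccl3 and Ccl2 levels was not tested.

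Of 27 genes that carry or end the receptors' signal inside the cell, 1 rose and 1 fell at 8 weeks, and none was called at 4 weeks. With 0.971% of all genes called higher and 1.4% lower at 8 weeks, a count of 1 in either direction is near the share over all genes, and it says nothing of the list as a whole. Gnb1, a G protein beta subunit that is also part of rod transducin, was between 3644.5 and 4625 CPM in Control, between 2807 and 4121 CPM in 4wk STZ and between 1911 and 2109 CPM in 8wk STZ. It fell by 1.10 on the log2 scale at 8 weeks against Control (adjusted p = 0.00254) and by 0.78 against 4wk STZ (adjusted p = 0.0282), the latter call being lost without 4wk STZ 3 or any 1 of the 8wk STZ libraries (adjusted p of up to 0.0926). All 16 rod markers fell at 8 weeks as well, with a median log2 fold change of -1.44, and the part of rod RNA in the Gnb1 level was not tested. Grk3, a kinase that desensitises activated receptors, was 4.20, 4.50 and 7.84 CPM in Control and 12.6, 14.6, 16.1 and 21.8 CPM in 8wk STZ, without overlap. It rose by 1.56 ± 0.35 (SE) on the log2 scale (adjusted p = 0.0458), a call lost without any 1 of 7 libraries, namely Control 1, Control 2, 4wk STZ 1 or each of the 8wk STZ libraries, with adjusted p of up to 0.135.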

How the data were processed

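RNA-seq was made from sorted retinal microglia of 10 mice, 1 library per animal, with a low-input kit that does not mark strand, per the labels' protocols. One table, as deposited, gives whole-number read counts for each gene, per the file headers. STAR, Salmon, Subread featureCounts, edgeR, limma and bcl2fastq, and the build GRCm38, are named in the submitters' processing notes; counting settings and annotation release are not stated there. A second deposited table holds the authors' log2 fold changes, mean log2 CPM, likelihood ratio score, p-values and FDR for 14475 genes against Control, per the file headers; 6 of the 7 genes are in it.

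From the counts, 287 repeated entries of 55774 were dropped, and genes were filtered with filterByExpr by group, scaled by TMM and fitted with edgeR 4.0.16 (R 4.3.3), 1 mean per group over 10 libraries (7 residual degrees of freedom, common BCV 0.564). Robust quasi-likelihood F-tests were adjusted by Benjamini-Hochberg over 18957 genes, and the SE is the log2 fold change over the square root of F. The fit was tested on simulated counts. Groups came from the labels. Replicates are separate animals, and no pair of libraries within a group differed by as little as counting noise. Pairs across groups were not checked. Totals of 33266838 to 62903489 reads set the counting precision, and reads carry no molecular identifiers. Levels per kilobase used merged GENCODE vM21 exons. The genes and lists were chosen with earlier results of these data known. Named outside the 7 genes were, per list, up to 4 called genes by smallest p, or else the 2 with the highest mean CPM, and the 5 genes most correlated with Cx3cr1 and with Ccr2. Alternatives were other scalings, no filter, DESeq2 1.42.0, the edgeR likelihood ratio test, limma-voom (limma 3.58.1), the 2 compared groups alone, a replicate block, and leaving out each library. A gene named by this rule is not reported here.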

Additional observations from a re-analysis of the deposited data

Results flagged for a closer look

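The 8wk STZ and 4wk STZ effects share their controls, so their difference equals the direct comparison of both groups. A set of 21 of the named genes was scanned, and that edgeR comparison picked out 5 of them. Syp, named above for its likeness to Cx3cr1, was outside the set and was also lower (-1.12, adjusted p = 0.0480). Ccl3 was higher at 8 weeks than at 4 weeks, with a log2 difference of 0.70 (adjusted p = 0.0405). Ccl2 was higher by 1.43 (adjusted p = 0.0405). Gnb1 was lower, with a log2 difference of -0.78 (adjusted p = 0.0282). The rod gene Rom1 was lower (-0.89, adjusted p = 0.0181), a call lost without 4wk STZ 3, 8wk STZ 1, 8wk STZ 3 or 8wk STZ 4. The neuronal gene Snap25 was lower (-0.93, adjusted p = 0.0166), a call lost without 4wk STZ 2, 4wk STZ 3 or 8wk STZ 4. None of the 7 chemokine receptor and ligand genes was picked out in this way. In the 8wk STZ group, the only one large enough for an outlier test, 0 of the 21 genes had a library set apart by Dixon's criterion.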

How the results depend on the processing

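Replicate numbers did not pair the animals: deviations of same-numbered libraries correlated between -0.030 and 0.035. A replicate block gave 0, 44 and 0 calls over all genes at 4 weeks, at 8 weeks and between the STZ groups, and Cx3cr1 log2 fold changes of -0.11, -0.28 and -0.17. Replicate number 4 occurs only in 8wk STZ, so the block fits 8wk STZ 4 by itself and takes it out of the comparisons. It also lowers the residual degrees of freedom. Leaving out 8wk STZ 4 with no block gave Cx3cr1 -0.28 at 8 weeks and -0.17 between the STZ groups, with 213 and 14 calls over all genes. With no block and every library kept, there were 0, 449 and 174 calls. DESeq2 gave 314, 1451 and 1004, the edgeR likelihood ratio test 244, 1166 and 759, no filter 12 at 4 weeks and 277 between STZ groups, and the 2 compared groups alone 100 between STZ groups. Leaving out 1 library gave 0 to 1, 206 to 462 and 13 to 118 calls, and leaving out Control 3 with 4wk STZ 3 gave 275 and 6 for the last 2. The share of 8-week calls that were higher was 41.0%, against 66.0% with library totals and 30.9% with upper-quartile scaling, and between STZ groups 43.1%, 70.8% and 31.2%. Apart from what the block does by design, the cause of these shifts was not tested.

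Of the 7 genes, 1 was called at 8 weeks with upper-quartile scaling, 1 with limma-voom, 2 with DESeq2, 2 with the likelihood ratio test, and 0 to 1 when 1 library was left out. For Cx3cr1 the 8-week log2 fold change was -0.37 with upper-quartile scaling, -0.33 with DESeq2, -0.32 with the likelihood ratio test, -0.33 with limma-voom, and -0.38 to -0.27 without 1 library.

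At 4 weeks limma-voom gave 1.00 for Cx3cl1 and 0.069 for Ccr1l1, and leaving out Control 3 with 4wk STZ 3 gave 0.16 for Ccr2 and -0.05 for Adam10. At 8 weeks upper-quartile scaling gave -0.019 for Ctss, limma-voom 0.73 for Cx3cl1, and the replicate block 1.49 for Cx3cl1, -0.24 for Ccr1 and -0.070 for Cxcr4. Between STZ groups upper-quartile scaling gave -0.032 for Ccrl2, library totals 0.0067 for Ctss, limma-voom -0.27 for Cx3cl1, 0.050 for Ccr2 and -0.058 for Ccr1, the replicate block 0.042 for Ccr2 and -0.45 for Ccr1, and leaving out Control 3 with 4wk STZ 3 -0.13 for Cx3cl1 and -0.13 for Ccrl2.

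Without 1 library the 4-week values ran from -0.42 to 0.42 for Ccr1l1, -2.80 to 1.05 for Cx3cl1, -0.50 to 0.091 for Ccl2, -1.14 to 0.27 for Ccr2, -0.036 to 0.36 for Ccr1 and -0.086 to 0.19 for Adam10. The 8-week values ran from -0.19 to 0.31 for Cxcr4, -1.91 to 1.37 for Cx3cl1, -0.035 to 0.064 for Ctss and -0.16 to 0.53 for Ccr1. Between STZ groups they ran from -0.85 to 2.07 for Cx3cl1, -0.64 to 0.76 for Ccr2, -0.32 to 0.37 for Ccr1 and -0.13 to 0.16 for Ccrl2.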
